A study of Mus musculus with 14 samples.

Results

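The genotype by injury interaction asks whether the kidney's response to ischemia-reperfusion (IR), the loss and return of blood flow, differs between VE-PTPiKO and Control mice. It is the difference of 2 differences, VE-PTPiKO IR minus VE-PTPiKO sham, less Control IR minus Control sham, and it was tested for 16346 of 23286 genes. It rests on 12 of the 14 samples of the series, chosen as all whole-kidney RNA libraries. The deposited tables, 1 per genotype, were joined by gene identifier and all libraries were put on a common scale. The other 2 samples are single-cell libraries taken 24 h after injury and were not analysed here.

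All bulk libraries came from kidneys of 9-week-old mice, taken 5 h after IR or sham surgery, with 3 libraries in each of 4 groups. Control sham and Control IR carry the genotype labelled Control, with sham surgery and IR injury respectively. VE-PTPiKO sham and VE-PTPiKO IR carry the genotype that targets VE-PTP, with the same surgeries. The strain and sex of these bulk samples, the Cre driver, the inducing agent and the genotype of the controls are not given in the sources used here. Nor do the labels say that the libraries of a group are separate animals, so every p-value measures the spread between these samples only.

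VE-PTP, the product of Ptprb, is a receptor tyrosine phosphatase of endothelial cells that removes phosphate from the receptor Tie2 (Tek). The ligand angiopoietin-1 (Angpt1) activates Tie2, whereas angiopoietin-2 (Angpt2) often acts as a context-dependent antagonist, and Tie1 is a co-receptor. Active Tie2 signals through AKT, keeps the transcription factor FOXO1 out of the nucleus and favours a quiescent, less leaky endothelium. After ischemia, tubular cells of the kidney switch on early stress genes and injury markers and lose transport and fat-burning functions.

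Libraries held from 15427887 to 21296392 reads assigned to genes. Markers of proximal tubule, loop of Henle, distal tubule, collecting duct, podocytes and endothelium were present in all 12 libraries, with summed endothelial markers between 621 and 794 CPM (reads scaled to the library total). One nuclear RNA, Malat1, took 1.96% of reads in VE-PTPiKO IR 3, 1.15% in VE-PTPiKO sham 2 and 1.02% in Control sham 2, against 0.327% to 0.564% in the other libraries. These 3 libraries lay at 1 end of the first component of variation within groups, which held 31.8% of that variance. In whole kidney, fewer cells of a type and less RNA per cell cannot be told apart.

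Ptprb, the targeted gene, lies at chr10:116301374-116389538 (mm10). Its normalized counts, that is reads divided by a size factor per library, were 3079, 4389 and 3288 for Control sham, 2052, 2169 and 2737 for Control IR, 2080.2, 2869 and 3068 for VE-PTPiKO sham, and 1322, 1687 and 2127 for VE-PTPiKO IR. The means of the groups were 3586 ± 704 in Control sham, 2319 ± 366 in Control IR, 2672 ± 522 in VE-PTPiKO sham and 1712 ± 403 in VE-PTPiKO IR (SD, n = 3). Sham libraries did not overlap between genotypes, VE-PTPiKO being lower, whereas the IR libraries did, and reads summed over the whole gene do not show a deletion of part of it. Ptprb fell after IR over both genotypes (average log2 change -0.64, limma adjusted p = 0.0068). The change was -0.62 in Control and -0.65 in VE-PTPiKO, so that the interaction was -0.03 ± 0.28 (log2 ± SE, 95% interval -0.64 to 0.58). Its sign turned when single libraries were left out, with a range of -0.20 to 0.15.

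No gene passed the test of the interaction. In limma with Benjamini-Hochberg adjustment, 0 of 16346 genes (0%) had an adjusted p under 0.05, and the smallest adjusted p was 0.999. At an unadjusted p under 0.05 there were 433 genes (2.65%), fewer than the 5% that evenly spread p-values would give. Of these, 296 had an interaction below 0 and 137 above 0. edgeR's quasi-likelihood test and DESeq2 on the recovered reads also called 0 genes, with 415 and 389 genes at an unadjusted p under 0.05. Without VE-PTPiKO IR 3 the unadjusted count was 1452, and without Control IR 2 it was 271. Without the 3 libraries highest in Malat1 it was 2407, again with 0 calls and a smallest adjusted p of 0.0928.

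**Figure D1:**
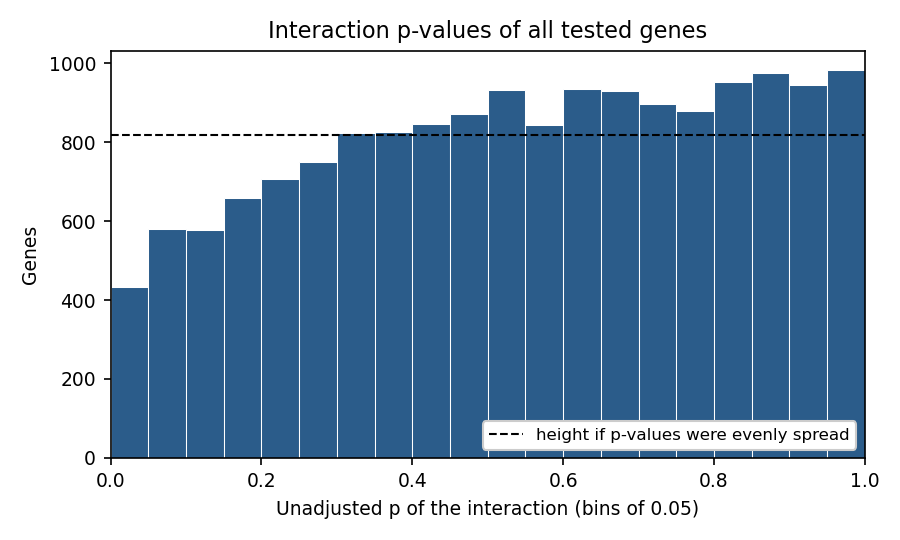
Histogram of the unadjusted limma p-values of the interaction for 16346 genes, in bins 0.05 wide (x axis, p; y axis, number of genes), with a dashed line at the height of an even spread. The lowest bin, with 433 genes, lies below that line and the bins toward 1 lie above it.

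Precision bounded what this design could show. The median SE of the interaction was 0.29 on the log2 scale, and the median 95% interval reached 0.63 to either side, a 1.55-fold difference of responses. For 9775 genes (59.8%) the whole interval lay inside a 2-fold difference. Among genes with strong injury responses only 198 of 695 (28.5%) had such an interval, and the median interval there reached 1.94-fold to either side. A 2-fold difference between the genotypes was thus within the interval of most strongly responding genes. Each interval is for 1 gene and is not adjusted for the number of genes tested. For genes named below for a small unadjusted p, an interval that leaves out 0 follows from that choice.

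Injury changed many genes when both genotypes were averaged. Over this average, 1667 genes rose (10.2%) and 1316 fell (8.05%) at a limma adjusted p under 0.05. Of these, 695 changed at least 2-fold, 481 up and 214 down, and are called injury-responsive below. This average is independent of the interaction in a balanced design, so it does not fix the sign of the interaction.

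**Figure D2:**
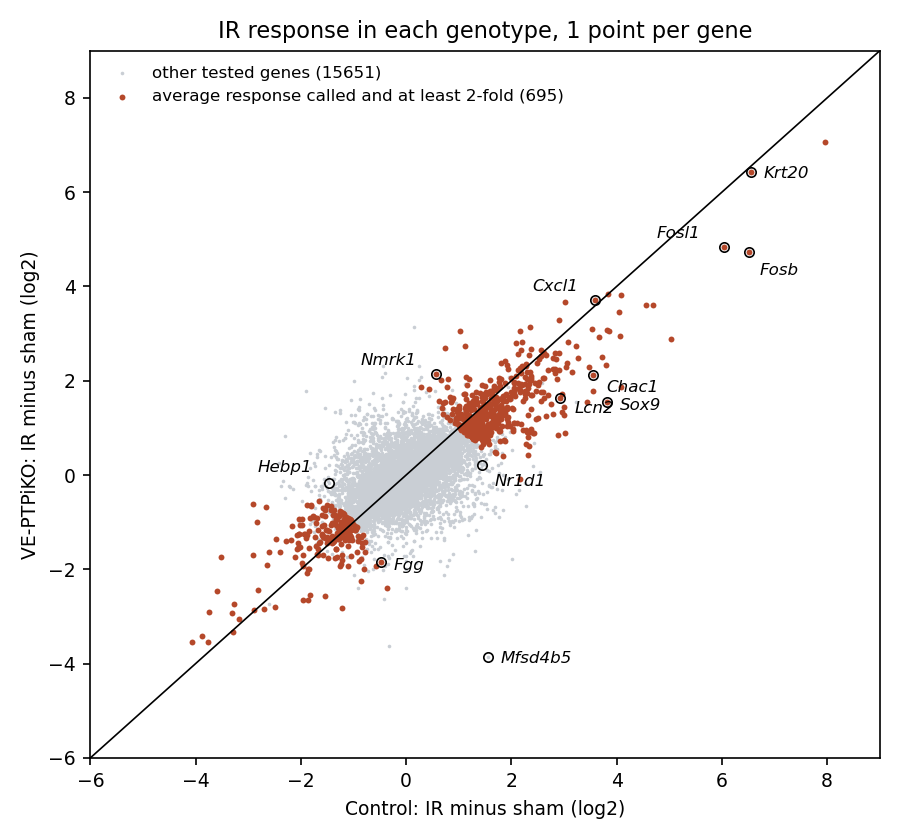
Response to IR of each tested gene in Control (x axis) and VE-PTPiKO (y axis), both as log2 change of IR over sham, with the line of equal responses; coloured points are the 695 injury-responsive genes and circles mark named genes. Points spread around the line in both directions, and Mfsd4b5 lies farthest below it, at 1.55 and -3.86.

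Among the injury-responsive genes the estimates leaned toward a smaller change in VE-PTPiKO. Of 481 genes that rose, 356 (74.0%) had an interaction below 0, against 52.2% of all tested genes. Their median response was 1.59 in Control and 1.34 in VE-PTPiKO, and their median interaction was -0.27. Of 214 genes that fell, 137 (64.0%) had an interaction above 0. Their median responses were -1.34 in Control and -1.25 in VE-PTPiKO, and their median interaction was 0.12. An unadjusted p under 0.05 was reached by 48 of the 481, 45 of them with an interaction below 0, and by 14 of the 214, 10 of them above 0. These genes share the same 12 libraries and do not vary independently, so no test was made over them. Counts below 0 in the gene lists that follow stand against the same shares, 52.2% of all tested genes and 74.0% of those that rose. For an unadjusted p under 0.05 and an interval inside a 2-fold difference, the shares over all tested genes were 2.65% and 59.8%.

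The size of this lean changed most without 1 of 2 VE-PTPiKO libraries. Injury-responsive genes were chosen anew in each fit, 832 without VE-PTPiKO IR 3 and 778 without VE-PTPiKO sham 1. With libraries left out the design is not balanced, so this choice is no longer independent of the interaction. How much of the change came from that was not tested. Signed along each gene's average response, the median interaction of injury-responsive genes was -0.23 with all 12 libraries, against -0.01 over all tested genes. It was -0.07 without VE-PTPiKO IR 3 and -0.08 without VE-PTPiKO sham 1, and between -0.30 and -0.17 when any other single library was left out. Without VE-PTPiKO IR 3, 64.6% of 508 rising genes lay below 0 (median -0.17) and 44.4% of 324 falling genes lay above 0 (median -0.10). Without VE-PTPiKO sham 1 these shares were 64.5% and 44.7%, with medians of -0.14 and -0.05. Without the 3 libraries highest in Malat1 the signed median was -0.19, with shares of 70.4% and 50%. For the genes that fell after IR, the share above 0 was thus at or below 50% in each of these subsets. The share over all tested genes was not taken in these fits, and a shift of all estimates was not tested.

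**Figure D3:**
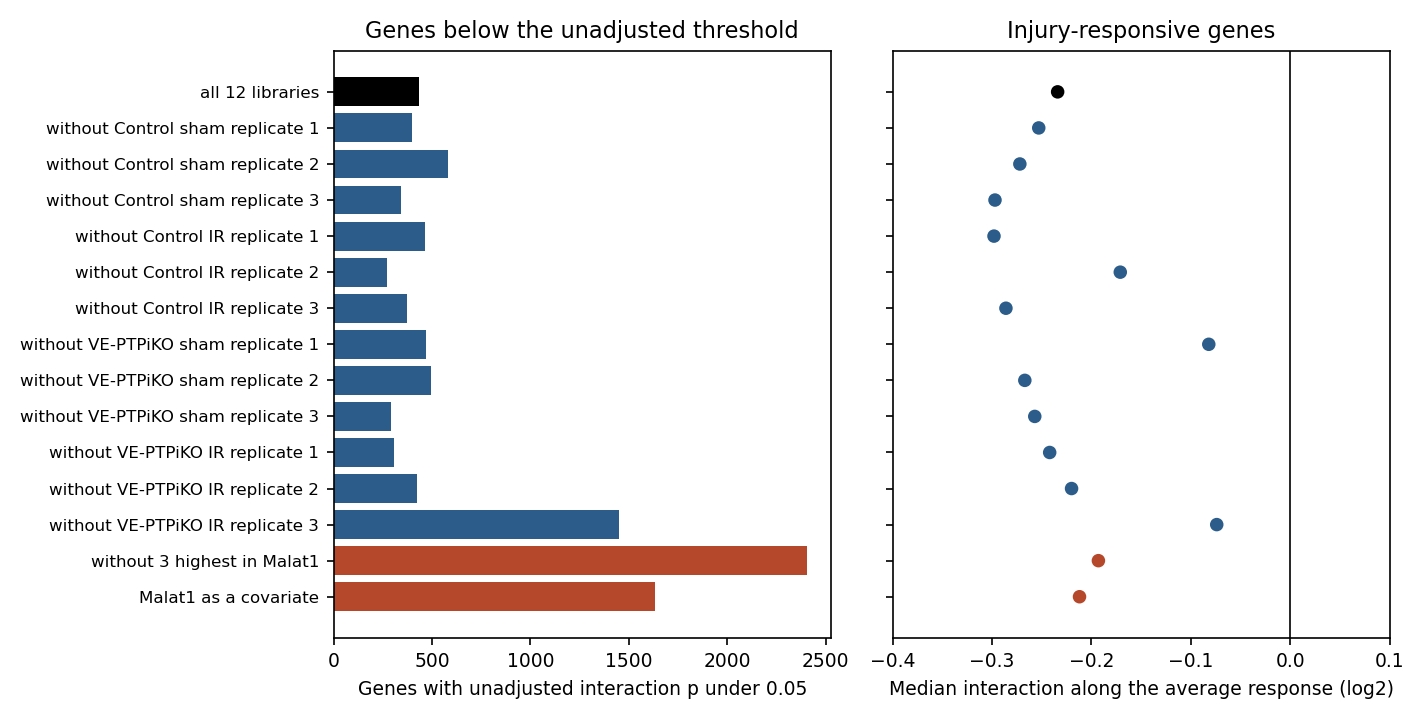
Genes with an unadjusted interaction p under 0.05 (left, bars) and median signed interaction of injury-responsive genes (right, points, log2) with all 12 libraries (black), without each library in turn (blue), and without the 3 libraries highest in Malat1 or with Malat1 as a covariate (red). Leaving out VE-PTPiKO IR replicate 3 gives 1452 genes and a median of -0.074, and leaving out VE-PTPiKO sham replicate 1 gives a median of -0.082. Injury-responsive genes are chosen anew in each fit.

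The angiopoietin-Tie pathway had no member with an unadjusted interaction p under 0.05. Of its 14 tested genes, 8 had an interaction below 0, the median was -0.02, and 11 had an interval inside a 2-fold difference. That median changed sign with the library left out, between -0.15 and 0.01. Tek, the Tie2 receptor itself, stood at 1098, 1108 and 1112 for Control sham, 843, 773 and 1189 for Control IR, 1139, 1218 and 1204 for VE-PTPiKO sham, and 1018, 1409 and 1109.5 for VE-PTPiKO IR. All VE-PTPiKO sham libraries lay above all Control sham libraries, and the IR groups overlapped. The Tek interaction was 0.24 ± 0.22 (interval -0.23 to 0.72), with 0.11 without VE-PTPiKO IR 2, 0.12 without Control IR 2 and 0.43 without Control IR 3. Angpt2 stood at 413, 358 and 388 for Control sham, 496, 519.6 and 522 for Control IR, 409, 400.1 and 326 for VE-PTPiKO sham, and 452, 401 and 397 for VE-PTPiKO IR. All Control IR libraries lay above all Control sham libraries, and 1 VE-PTPiKO IR library lay above all VE-PTPiKO sham libraries. The Angpt2 change was 0.41 in Control and 0.14 in VE-PTPiKO, with an interaction of -0.27 ± 0.18 (interval -0.65 to 0.11, unadjusted p = 0.15). For Tie1 and Angpt1 the interactions were -0.04 ± 0.16 and -0.01 ± 0.20. Both changed sign when single libraries were left out, Angpt1 also with another scaling, and 14.2% of the Angpt1 exon length overlaps a gene on the other strand. Cdh5, the VE-cadherin of endothelial junctions and a partner of VE-PTP, rose over both genotypes and had an interaction of -0.30 ± 0.19 (interval -0.71 to 0.10).

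Genes known as targets of FOXO1 in endothelium showed no called interaction either. Of 12 tested, 9 had an estimate below 0, and the median was -0.21. It lay between -0.35 and -0.18 when single libraries were left out, with -0.35 without Control sham 1, -0.33 without VE-PTPiKO IR 2 and -0.32 without VE-PTPiKO IR 1. Apln, which encodes the peptide apelin, stood at 67.8, 125 and 94.3 for Control sham, 396, 487 and 230.1 for Control IR, 119, 88 and 123 for VE-PTPiKO sham, and 315, 259 and 189 for VE-PTPiKO IR. Every IR library lay above every sham library of its genotype, and the change was 1.92 in Control and 1.19 in VE-PTPiKO (interaction -0.74 ± 0.42, interval -1.64 to 0.16). Irs2, the insulin receptor substrate 2, stood at 2352, 2331 and 2179 for Control sham, 2631, 2697 and 2850.1 for Control IR, 1909.6, 4190.2 and 3809 for VE-PTPiKO sham, and 1899.8, 2247 and 2959 for VE-PTPiKO IR. VE-PTPiKO sham 1 was the lowest sham library, and VE-PTPiKO sham 2 and 3 were the highest of all libraries. The Irs2 interaction was -0.68 ± 0.34, and -1.03 without VE-PTPiKO sham 1.

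General endothelial markers had little spread. Of 22 tested, 9 lay below 0 and 13 above, with a median of 0.04, and 20 had intervals inside a 2-fold difference. Without Control IR 1 the median was -0.02 and 13 lay below 0, and 5 lay below 0 without Control IR 3. Without Control sham 2 the median was 0.12. Sox17, a transcription factor of arterial endothelium, was the 1 marker under an unadjusted p of 0.05 (interaction -0.57 ± 0.26), and 16.8% of its exon length overlaps a gene on the other strand.

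Endothelial activation and adhesion genes responded to injury, 14 of 17 rising on average and none falling. Of these 17, 10 had an interaction below 0, the median was -0.24, and it lay between -0.29 and -0.21 when single libraries were left out. Vcam1, an adhesion molecule for leukocytes that injured tubular cells also make, stood at 363, 316 and 299 for Control sham, 882, 904 and 596 for Control IR, 349, 373 and 301 for VE-PTPiKO sham, and 533, 445 and 431 for VE-PTPiKO IR normalized counts. All 3 Control IR libraries lay above all 3 VE-PTPiKO IR libraries, while the sham groups overlapped. Vcam1 rose on average, with IR over sham at 2.4-fold in Control and 1.38-fold in VE-PTPiKO on the log2(count + 1) scale, and the interaction was -0.80 ± 0.24 (interval -1.32 to -0.29, unadjusted p = 0.005, adjusted p = 0.999). Sele, the endothelial selectin, stood at 22.6, 36 and 31.1 for Control sham, 79.5, 132 and 67.5 for Control IR, 25.8, 24.6 and 23.9 for VE-PTPiKO sham, and 51.2, 38.3 and 31.8 for VE-PTPiKO IR. Here too every Control IR library lay above every VE-PTPiKO IR library (interaction -0.91 ± 0.41, unadjusted p = 0.044). Procr, the endothelial protein C receptor, and F3, tissue factor, had interactions of -0.80 ± 0.32 and -0.57 ± 0.25. Other members went the other way: Adamts4, a matrix protease, was at 0.77 ± 1.22 and Ptgs2, the inducible cyclooxygenase, at 0.74. Selp, the P-selectin of platelets and endothelium, was at 0.22 ± 0.84. It had 0, 0.95 and 2.08 normalized counts in VE-PTPiKO sham, where a few reads shift the log2 change. Its mean after IR was 31.2 in Control and 10.1 in VE-PTPiKO. The Selp sign turned in single-library omissions, and Adamts4 ran from 0.08 (without Control sham 3) to 1.997 (without Control sham 1) and was -0.42 without the 3 libraries highest in Malat1.

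Of 22 tubular injury genes 21 passed the filter on low values, and these 21 rose on average. An interaction below 0 was found in 19 of the 21, against 52.2% of all tested genes and 74.0% of rising injury-responsive genes. The median interaction of the 21 was -0.21. It was -0.12 without Control IR 2, -0.37 without Control sham 3, -0.33 without Control IR 3 and -0.40 without VE-PTPiKO sham 2. The number below 0 ran from 15 (without VE-PTPiKO sham 1 or VE-PTPiKO IR 3) to 20 (without Control sham 3). Krt20, a keratin induced in injured tubule, stood at 7.92, 16.7 and 27.9 for Control sham, 2139, 1215 and 1427 for Control IR, 15, 12.3 and 36.5 for VE-PTPiKO sham, and 1593, 1687 and 1915 for VE-PTPiKO IR. The VE-PTPiKO IR range lay inside the Control IR range, the changes were 6.55 in Control and 6.43 in VE-PTPiKO, and the interaction was -0.11 ± 0.59 (interval -1.38 to 1.16). Its sign turned in single-library omissions, over a range of -0.51 to 0.34. Havcr1, which encodes the injury marker KIM-1, stood at 65.6, 58.9 and 56.8 for Control sham, 331, 224 and 251 for Control IR, 58.3, 39.7 and 49.98 for VE-PTPiKO sham, and 304, 176 and 463 for VE-PTPiKO IR. Its IR groups also overlapped, with an interaction of 0.44 ± 0.41 in the other direction (interval -0.45 to 1.33), with 0.10 without VE-PTPiKO IR 3, 0.80 without VE-PTPiKO IR 2 and -0.02 without the 3 libraries highest in Malat1. Krt8, another tubular keratin, rose 5.89-fold in Control and 5.72-fold in VE-PTPiKO, with an interaction of -0.04 ± 0.25 whose sign changed in some settings.

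Lcn2 and Sox9 were the tubular injury genes with estimates farthest below 0. Lcn2, the secreted protein NGAL, stood at 81.4, 86.1 and 134 for Control sham, 510.3, 1525 and 541 for Control IR, 176, 113 and 167 for VE-PTPiKO sham, and 687, 362 and 398 for VE-PTPiKO IR. Control IR 2 was the highest library by a wide margin, and the other Control IR libraries lay within the VE-PTPiKO IR range. The interaction was -1.30 ± 0.54 (unadjusted p = 0.031), and it was -0.79 without Control IR 2. Summed neutrophil markers, a cell type that also makes Lcn2, were 8.89 to 28.7 CPM in Control IR and 8.36 to 18.5 in VE-PTPiKO IR, against 5.31 to 11.4 and 6.98 to 8.78 in the sham groups. Their part in the Lcn2 difference was not tested. Sox9, a transcription factor of tubular repair, stood at 4.52, 17.6 and 12.8 for Control sham, 159, 153 and 162 for Control IR, 18.3, 7.57 and 35.4 for VE-PTPiKO sham, and 39.7, 106 and 34 for VE-PTPiKO IR. All Control IR libraries lay above all VE-PTPiKO IR libraries, and VE-PTPiKO sham 3 lay above VE-PTPiKO IR 3. The Sox9 interaction was -2.27 ± 0.79 (interval -3.97 to -0.56, unadjusted p = 0.013), and leaving out single libraries moved it between -2.81 and -1.75. These are low counts in sham, where a few reads shift the log2 change.

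Most immediate early and AP-1 genes rose after injury, and most had an interaction below 0. These genes encode transcription factors and feedback proteins that cells induce within minutes to hours of stress. Of 28 tested, 23 rose on average. An interaction below 0 was found in 26 of the 28, against 52.2% of all tested genes and 74.0% of rising injury-responsive genes. The median interaction of the 28 was -0.48. When single libraries were left out the median lay between -0.56 and -0.30 and the number below 0 between 23 and 27, the weakest median coming without VE-PTPiKO sham 3. With all 12 libraries in limma this median was the lowest of the 30 lists, but the sparse neutrophil genes were lower in edgeR (-0.65), DESeq2 (-0.64) and with a pseudocount of 0.5 (-0.50), and neutrophil, lymphocyte or red blood cell genes were lower in 10 of the 12 fits without a single library. Median responses were 1.55 in Control and 1.06 in VE-PTPiKO. Myc, Fosl1, Jun, Egr1 and Ccn1 had an unadjusted p under 0.05, which is 5 of 28, and 11 of the 28 intervals lay inside a 2-fold difference. Over all tested genes these shares were 2.65% and 59.8%.

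Fosb, an AP-1 subunit, stood at 19.2, 12.3 and 15 for Control sham, 1428, 1879 and 1225 for Control IR, 102, 9.46 and 29.2 for VE-PTPiKO sham, and 936, 1389 and 474 for VE-PTPiKO IR. Every IR library lay above every sham library, and VE-PTPiKO sham 1 was the highest sham library. The change was 6.51 in Control and 4.74 in VE-PTPiKO, and the interaction was -1.78 ± 0.87 (interval -3.65 to 0.09), or -0.93 without VE-PTPiKO sham 1. Fosl1, also an AP-1 subunit, stood at 5.65, 14.1 and 15 for Control sham, 774, 964 and 603 for Control IR, 14.2, 26.5 and 12.5 for VE-PTPiKO sham, and 457, 545 and 533 for VE-PTPiKO IR. All Control IR libraries lay above all VE-PTPiKO IR libraries (interaction -1.19 ± 0.48, unadjusted p = 0.028), and the estimate was -0.78 without Control sham 1. Over its exon length 57.2% overlaps Ccdc85b on the other strand, and reads of the 2 genes could not be separated. Fos itself had an interaction of -0.69 ± 0.51 and a wide interval, -1.78 to 0.40. It was -0.25 without VE-PTPiKO sham 3, -0.38 without Control sham 2 and -0.42 without Control IR 2.

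Jun, the partner of Fos proteins in AP-1, stood at 1679, 1687 and 1415 for Control sham, 4266, 5028 and 4624 for Control IR, 1536, 1475 and 2205 for VE-PTPiKO sham, and 3116, 3679.6 and 3835 for VE-PTPiKO IR. Every Control IR library lay above every VE-PTPiKO IR library, with sham groups overlapping. The rise was 2.91-fold in Control and 2.06-fold in VE-PTPiKO (interaction -0.50 ± 0.22, unadjusted p = 0.038), and -0.31 without VE-PTPiKO sham 3. Myc, a growth transcription factor, stood at 381, 442 and 367 for Control sham, 1127, 1186 and 909 for Control IR, 414, 490.0 and 503 for VE-PTPiKO sham, and 808, 827 and 1025 for VE-PTPiKO IR. Its IR groups overlapped, with VE-PTPiKO IR 3 above Control IR 3, and the interaction was -0.51 ± 0.20 (unadjusted p = 0.025). Egr1, a zinc finger factor, stood at 308, 163 and 124 for Control sham, 1486, 3001 and 1936 for Control IR, 177, 234 and 307 for VE-PTPiKO sham, and 912, 899 and 1842 for VE-PTPiKO IR. VE-PTPiKO IR 3 lay within the Control IR range and the other VE-PTPiKO IR libraries below it (interaction -1.18 ± 0.51, unadjusted p = 0.039). Ccn1, a matricellular protein, had an interaction of -0.85 ± 0.37 (-0.54 without Control sham 1) and Zfp36, which destabilises cytokine mRNAs, one of -0.64 ± 0.33.

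The promoters of Jun and Zfp36 are shown because they carry 2 classical elements of early response genes: a variant of the cyclic AMP response element in Jun and a CArG box, the site read by serum response factor, in Zfp36. Each sequence is the 250 bases before the start site from RefSeq (GRCm38.p6, both on the minus strand, chr4:95052223-95052472 and chr7:28379229-28379478), written 5′ to 3′ along the gene with the element in capitals.
Jun: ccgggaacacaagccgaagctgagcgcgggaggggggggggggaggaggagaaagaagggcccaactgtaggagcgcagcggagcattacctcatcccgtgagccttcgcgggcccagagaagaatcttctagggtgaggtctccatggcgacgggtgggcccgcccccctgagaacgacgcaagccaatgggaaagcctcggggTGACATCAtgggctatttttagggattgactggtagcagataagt
Zfp36: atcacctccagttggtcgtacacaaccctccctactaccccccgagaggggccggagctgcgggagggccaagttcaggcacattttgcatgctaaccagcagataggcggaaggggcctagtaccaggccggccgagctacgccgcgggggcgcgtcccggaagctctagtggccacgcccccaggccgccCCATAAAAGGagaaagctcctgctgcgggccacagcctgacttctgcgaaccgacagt
The Jun element lies at -45 to -38 and the Zfp36 element at -58 to -49 from the start site. Windows of 250 bases before to 50 after the start were searched on both strands for the cyclic AMP response element TGACGTCA, its variant TGACATCA, the AP-1 site TGANTCA and the CArG box, and 23 of the 28 early genes had a promoter in the table. These 23 genes had 29 promoters. The first was found in 3 of the 29 (10.3%) and in 1.79% of all 32851 promoters, the variant in 3 (10.3%) and 3.62%, and the CArG box in 6 (20.7%), belonging to 3 genes, and 1.63%. The AP-1 letters were in none of the 29 and in 7.81% of all. A match is a description of the letters only. Jun and Zfp36 both rose after IR, with interactions of -0.50 and -0.64.

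**Figure D4:**
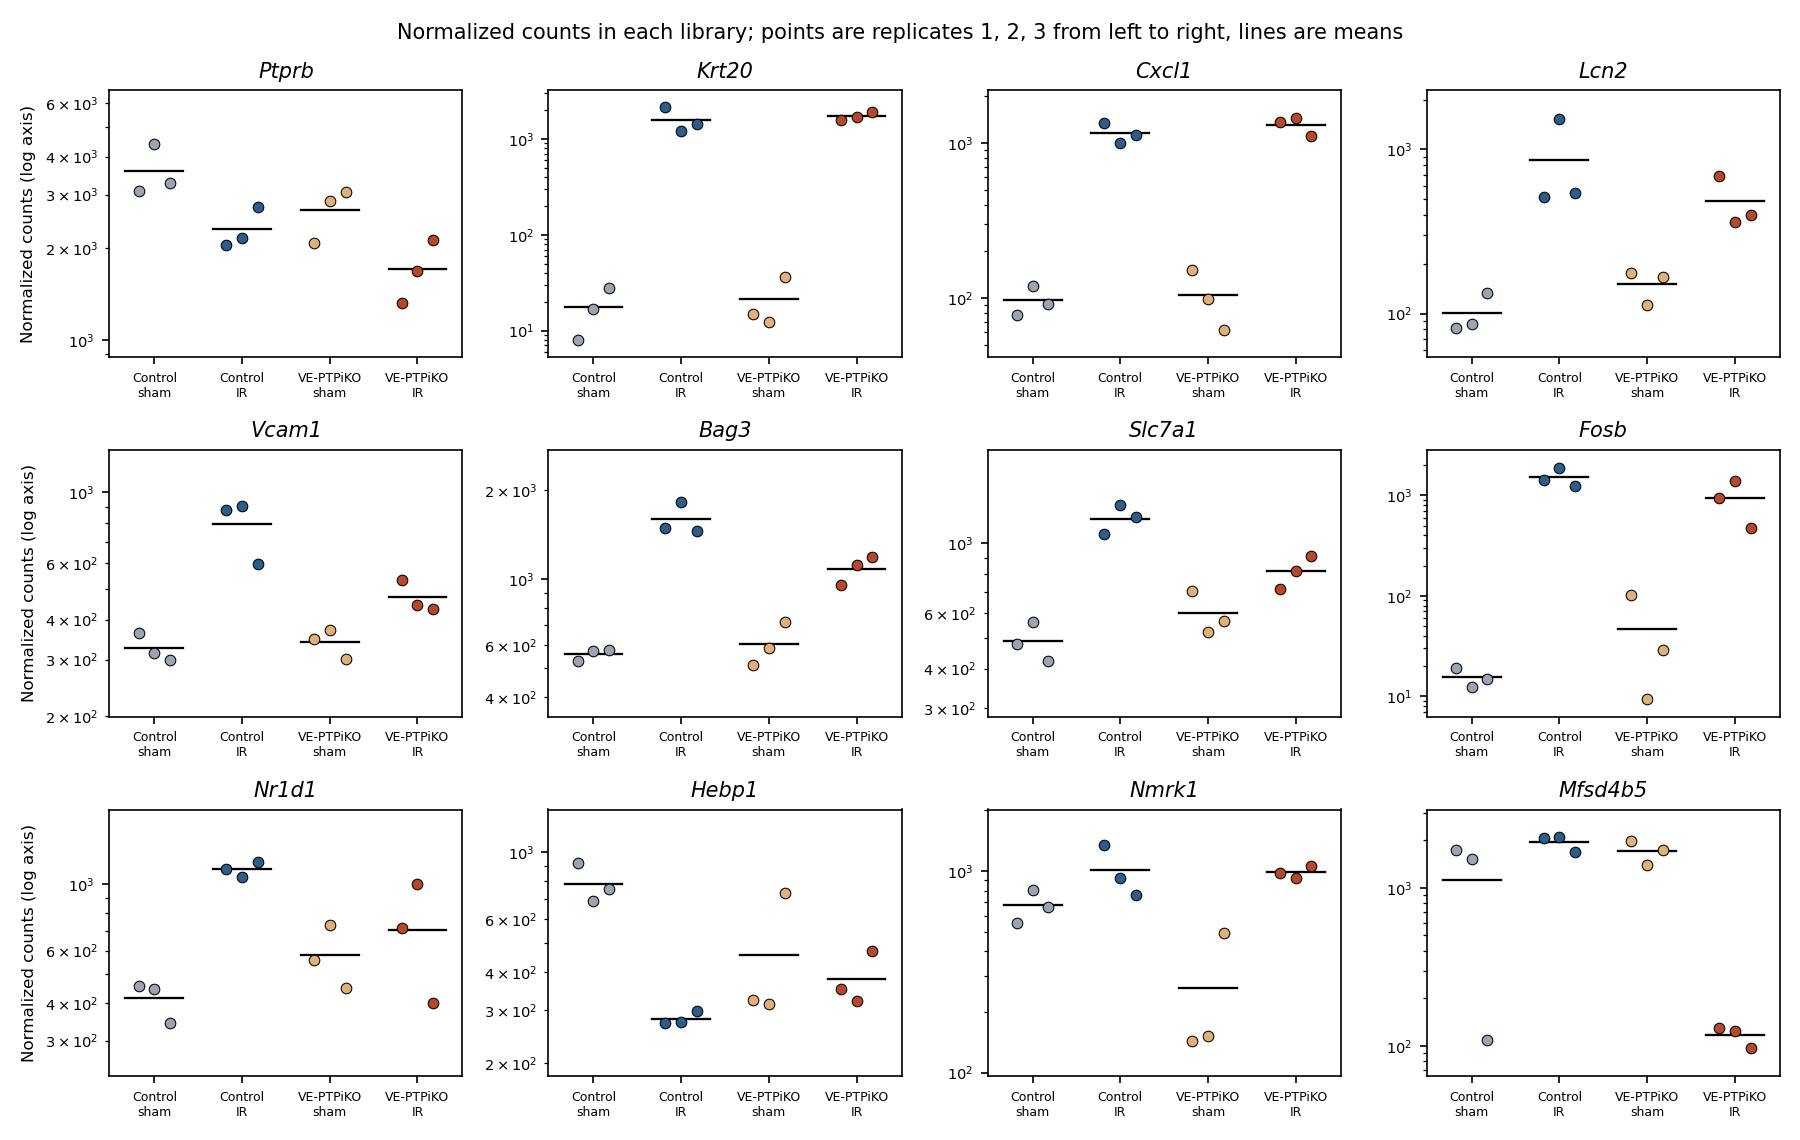
Normalized counts of 12 genes in each library (y axes, log scale) for the 4 groups of 3 libraries, with points for replicates 1 to 3 and lines for group means. Krt20 and Cxcl1 overlap after IR between the genotypes, Vcam1, Bag3 and Slc7a1 stand higher in Control IR than in VE-PTPiKO IR, and Mfsd4b5 falls into a high and a low level.

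Cytokine, chemokine and NF-kB feedback genes had no member with an unadjusted p under 0.05. Of 25 tested, 20 rose on average and 18 had an interaction below 0, with a median of -0.18 that became -0.31 without Control sham 2 and -0.11 without Control sham 1. It was -0.42 without the 3 libraries highest in Malat1. Cxcl1, a neutrophil attractant, stood at 78, 119.5 and 92.1 for Control sham, 1349, 1004 and 1133 for Control IR, 151, 99.3 and 62.5 for VE-PTPiKO sham, and 1375, 1453 and 1105 for VE-PTPiKO IR. The IR groups overlapped, and the rise was 12-fold in Control and 13.2-fold in VE-PTPiKO. Its interaction was 0.13 ± 0.37 (interval -0.67 to 0.94), and it turned negative without Control sham 2 or VE-PTPiKO sham 3. Ccl2, a monocyte attractant, had few reads in sham and an interaction of -0.25 ± 0.81 (interval -1.99 to 1.49).

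Among stress response genes, the heat shock members Hspa1a and Bag3 had the estimates farthest below 0 of their list. Of 19 heat shock genes 14 rose on average, 11 had an interaction below 0 and the median was -0.08, a value that ranged from -0.22 to 0.03 when single libraries were left out. Bag3, a co-chaperone, stood at 529, 571 and 578 for Control sham, 1497, 1827 and 1461 for Control IR, 514, 584 and 714 for VE-PTPiKO sham, and 956, 1116 and 1187 for VE-PTPiKO IR. Its IR groups did not overlap and its sham groups did, with an interaction of -0.65 ± 0.20 (interval -1.08 to -0.22, unadjusted p = 0.006). Hspa1a, an inducible Hsp70, stood at 166, 163 and 238 for Control sham, 565, 1019.5 and 815 for Control IR, 187, 175 and 225 for VE-PTPiKO sham, and 483, 456 and 335 for VE-PTPiKO IR. Again all Control IR libraries lay above all VE-PTPiKO IR libraries (interaction -0.95 ± 0.32, unadjusted p = 0.01). Reads of Hspa1a can be shared with its near-identical neighbour Hspa1b, and 19.0% of its exon length overlaps a gene on the other strand.

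In the endoplasmic reticulum stress and integrated stress response list, 13 of 19 genes had an interaction below 0 and the median was -0.14. It was -0.01 without Control sham 2, -0.06 without Control IR 2, -0.07 without VE-PTPiKO IR 3 and 0.08 without the 3 libraries highest in Malat1. Chac1, which degrades glutathione, stood at 31.7, 42.2 and 31.1 for Control sham, 346, 569 and 373 for Control IR, 83.2, 34 and 18.7 for VE-PTPiKO sham, and 165, 258 and 111 for VE-PTPiKO IR. VE-PTPiKO sham 1 was the highest sham library, and the Control IR range lay above the VE-PTPiKO IR range. The interaction was -1.44 ± 0.62 (unadjusted p = 0.037), and -0.88 without VE-PTPiKO sham 1. Trib3, a pseudokinase induced by amino acid stress, had an interaction of -1.24 ± 0.55, and -0.70 without the same library. Ppp1r15a, which restarts translation after stress, had an interaction of -0.53 ± 0.24.

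Targets of p53 and of NRF2 had more estimates below 0 than above and no call. Over all tested genes 52.2% lay below 0, and over rising injury-responsive genes 74.0% did. Of 19 p53 and DNA damage genes 14 lay below 0, with a median of -0.22 that fell in size to -0.12 without VE-PTPiKO sham 3, -0.13 without VE-PTPiKO IR 1, -0.13 without Control sham 3 and -0.14 without Control sham 2. Cdkn1a, the cell cycle inhibitor p21, stood at 675, 703 and 860.1 for Control sham, 1460.0, 2019 and 1666 for Control IR, 1430.1, 772 and 1229.8 for VE-PTPiKO sham, and 1397, 2108 and 1457 for VE-PTPiKO IR. VE-PTPiKO sham 1 lay above VE-PTPiKO IR 1, and the interaction was -0.64 ± 0.31 (interval -1.32 to 0.03). Gadd45a, a growth arrest gene with 19.1% of its exon length overlapped on the other strand, had an interaction of -0.55 ± 0.32, and -0.32 without VE-PTPiKO IR 3. Of 15 NRF2, haem and glutathione genes 12 lay below 0, a number that ran from 9 (without VE-PTPiKO IR 3) to 14 in single-library omissions. Their median was -0.25. It was -0.06 without Control sham 2, -0.12 without Control IR 2 and -0.14 without VE-PTPiKO IR 3. Without the 3 libraries highest in Malat1 it was -0.02. Osgin1, an oxidative stress growth inhibitor, stood at 1399, 1268 and 1180.4 for Control sham, 2606, 4099 and 2356 for Control IR, 1183, 1791 and 1591 for VE-PTPiKO sham, and 1542, 1646 and 2217 for VE-PTPiKO IR. All Control IR libraries lay above all VE-PTPiKO IR libraries (interaction -0.95 ± 0.30, unadjusted p = 0.007). Srxn1, which repairs oxidised peroxiredoxins, rose 6.95-fold in Control and 5.61-fold in VE-PTPiKO, with an interaction of -0.31 ± 0.28. This was -0.07 without Control sham 2, -0.12 without Control IR 2, -0.50 without Control sham 3 and -0.05 without the 3 libraries highest in Malat1.

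Fat-burning genes fell, with median changes close to each other in the genotypes. Of 23 genes of fatty acid oxidation and PPARa, 19 fell on average, 9 had an interaction below 0 and the median was 0.03, with median responses of -0.87 in Control and -0.91 in VE-PTPiKO. The sign of that median turned with the library left out, between -0.07 and 0.16. Acot1, an acyl-CoA thioesterase with close paralogs whose reads it may share, stood at 5050.3, 4929 and 7134 for Control sham, 1907, 1426 and 1393 for Control IR, 4079.7, 4804 and 6688 for VE-PTPiKO sham, and 2646, 1992 and 2084 for VE-PTPiKO IR. Its IR groups did not overlap, Control being lower (interaction 0.66 ± 0.28, unadjusted p = 0.038). Fabp1, a fatty acid carrier, was the other member under an unadjusted p of 0.05 and had the lowest estimate of the list, -1.84 ± 0.81, at 0 to 8.33 normalized counts per library. G6pc, the last enzyme of glucose release, fell 7-fold in Control and 5.46-fold in VE-PTPiKO and had an interaction of 0.36 ± 0.38. Without single libraries it ran from 0.05 (VE-PTPiKO sham 1) to 0.61 (Control IR 1), with 0.17 without Control sham 1 and 0.21 without Control IR 3.

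Most tubule segment genes had narrow intervals. Over all tested genes 59.8% had an interval inside a 2-fold difference, and how far interval width follows expression level was not tested. Of 24 proximal tubule genes 21 had an interval inside a 2-fold difference, as did 10 of 10 loop of Henle genes, 11 of 12 collecting duct genes and 9 of 10 podocyte genes. Their median interactions were -0.04, 0.03, -0.05 and 0.02, values whose sign changed with the library left out. Slc13a3, a dicarboxylate transporter of proximal tubule, stood at 13965, 13677 and 11916 for Control sham, 13721, 14889 and 14540.3 for Control IR, 15259, 13219 and 15764 for VE-PTPiKO sham, and 11236, 11888 and 9513 for VE-PTPiKO IR. All VE-PTPiKO IR libraries lay below all others, and the interaction was -0.57 ± 0.17 (interval -0.94 to -0.19, unadjusted p = 0.006, limma adjusted p = 0.999). Trpv5, the calcium channel of distal tubule, rose on average, by 2.3-fold in Control and 1.5-fold in VE-PTPiKO (interaction -0.62 ± 0.27, unadjusted p = 0.039). Kcnj1, the potassium channel ROMK, fell on average, by 1.75-fold in Control and 1.32-fold in VE-PTPiKO (interaction 0.40 ± 0.22, or 0.26 without VE-PTPiKO sham 2). Cyp27b1, which activates vitamin D, fell on average, but Control sham 1 stood at 794 against 175 and 119 in its group, and the interaction was 0.13 ± 0.73.

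Coagulation and clock genes held 2 of the lower single estimates. Of 14 coagulation and fibrinolysis genes 11 had an interaction below 0, with a median of -0.43. It was -0.22 without Control IR 2, -0.24 without Control sham 1 and -0.27 without VE-PTPiKO IR 3. Fgg, the fibrinogen gamma chain, stood at 119.9, 81.7 and 224 for Control sham, 116, 93.9 and 73.2 for Control IR, 495, 343 and 497 for VE-PTPiKO sham, and 156, 114 and 103 for VE-PTPiKO IR. Here the sham groups differed: all VE-PTPiKO sham libraries lay above all other libraries, while the IR groups overlapped. The change was -0.48 in Control and -1.84 in VE-PTPiKO, with an interaction of -1.35 ± 0.45 (unadjusted p = 0.0096). The other fibrinogen chains, Fga and Fgb, had interactions of -0.79 ± 0.46 and -1.28 ± 0.75. Fga was -0.47 without Control sham 1, -0.51 without VE-PTPiKO sham 3 and -1.23 without Control sham 3. Fgb was -0.77 without Control sham 2 and -2.10 without Control sham 3. Of 19 circadian clock genes 10 lay below 0, with a median of -0.07 whose sign changed with the library left out. Nr1d1, the clock repressor REV-ERBa, stood at 456, 448 and 343 for Control sham, 1128, 1057 and 1185 for Control IR, 558, 730.2 and 451 for VE-PTPiKO sham, and 714, 998 and 401 for VE-PTPiKO IR. Control IR lay above every other library, VE-PTPiKO IR 3 was below all its sham libraries, and the interaction was -1.23 ± 0.38 (unadjusted p = 0.0062), or -0.75 without the 3 libraries highest in Malat1. Over its exon length 8.5% overlaps Thra on the other strand. Bhlhe40 and Npas2, both clock transcription factors, had interactions of -0.45 ± 0.19 and -1.11 ± 0.57, the latter -0.68 without VE-PTPiKO sham 1.

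Blood cell lists were sparse. Of 14 neutrophil genes 12 had an interaction below 0 (median -0.45), but 0 had an interval inside a 2-fold difference, and without Control IR 2 the count was 7 of 13 and the median -0.03. The median was -0.19 without Control sham 2, -0.69 without Control sham 3 and -0.10 without the 3 libraries highest in Malat1. Clec4e, a myeloid pattern receptor, had an interaction of -1.15 ± 0.57 at 5.21 to 28.6 normalized counts per library. Of 16 monocyte and macrophage genes 13 lay below 0 (median -0.18), which was -0.09 without Control sham 2, -0.10 without VE-PTPiKO IR 2 and -0.11 without VE-PTPiKO sham 3. Cd68, a lysosomal protein of macrophages, stood at 33.9, 27.2 and 39.6 for Control sham, 187, 204 and 182 for Control IR, 22.5, 39.7 and 41.6 for VE-PTPiKO sham, and 159.9, 175 and 203 for VE-PTPiKO IR. Its IR groups overlapped, with a rise of 5.6-fold in Control and 5.21-fold in VE-PTPiKO and an interaction of -0.10 ± 0.34 that changed sign in 4 settings. The 8 red blood cell genes tested lay below 0 (median -0.35), but 3 of 8 did without VE-PTPiKO IR 3, where the median was 0.09. It was -0.14 without VE-PTPiKO sham 1, -0.15 without Control sham 2, -0.17 without Control IR 2, -0.57 without VE-PTPiKO IR 1, -0.67 without Control sham 3 and -0.72 without VE-PTPiKO IR 2. Summed red cell markers ran from 298 to 553 CPM in Control IR and from 115 to 511 in VE-PTPiKO IR.

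**Figure D5:**
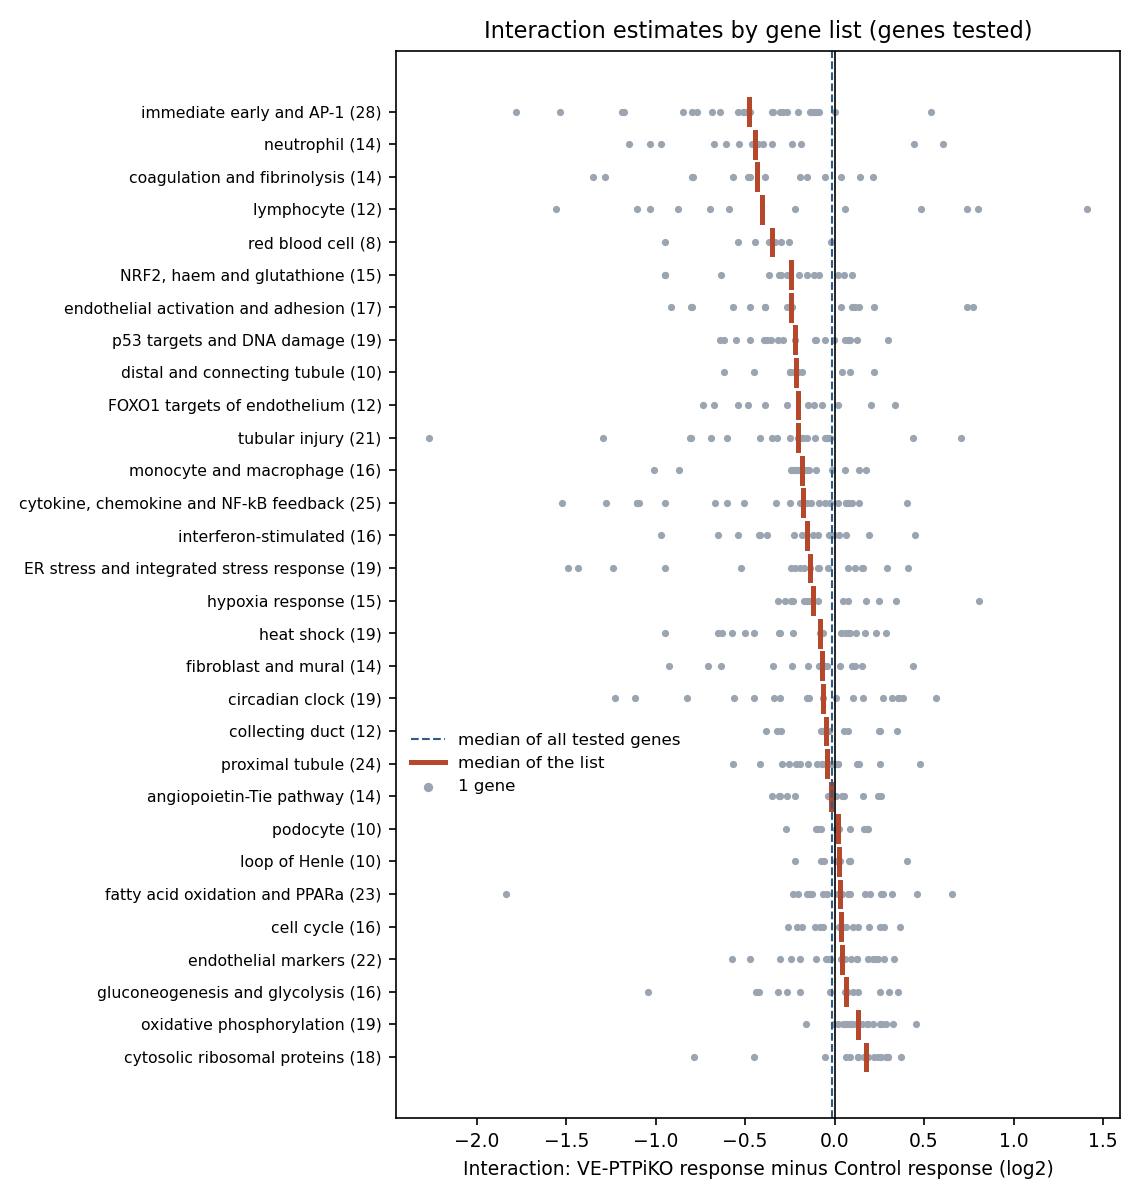
Interaction estimates (x axis, log2) of the tested genes of 30 lists (1 line per list, number tested in parentheses); grey points are genes, bars are list medians, and the dashed line is the median of all tested genes. In this fit the median is -0.48 for immediate early genes and 0.18 for cytosolic ribosomal protein genes; which list lies lowest or highest changes with the tool and the library left out.

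Outside the lists, the genes of smallest unadjusted p among those with a mean of at least 5 CPM were read library by library. Slc7a1, a transporter of cationic amino acids, stood at 478, 564 and 422 for Control sham, 1068, 1322 and 1211 for Control IR, 706, 524 and 568 for VE-PTPiKO sham, and 716, 819 and 915 for VE-PTPiKO IR. The IR groups did not overlap, VE-PTPiKO being lower, and the sham groups overlapped. Slc7a1 rose on average, with IR over sham at 2.46-fold in Control and 1.37-fold in VE-PTPiKO and an interaction of -0.85 ± 0.22 (interval -1.31 to -0.39, unadjusted p = 0.0016). For Eif3b, a translation initiation subunit, and Yipf3, a Golgi protein, the estimated responses were 0.30 and 0.27 in Control and -0.32 and -0.63 in VE-PTPiKO. Their interactions were -0.62 ± 0.17 and -0.89 ± 0.25 (unadjusted p = 0.003 and 0.003). No response of these genes within a genotype was called, with limma adjusted p of 0.164 and 0.431 in Control and 0.148 and 0.0502 in VE-PTPiKO. Ticam1, the Toll-like receptor adaptor TRIF, Sh3bp4, an endocytic adaptor, and Rab11fip1, an effector of recycling endosomes, had interactions of -0.66 ± 0.19, -0.73 ± 0.21 and -0.66 ± 0.20. In each of these 3 the response was larger in Control, at 0.87, 1.32 and 0.74 against 0.22, 0.59 and 0.08.

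Among estimates above 0, Hebp1 and Nmrk1 had a VE-PTPiKO sham group that was divided. Hebp1, a haem-binding protein, stood at 923, 686 and 752 for Control sham, 272, 273 and 299 for Control IR, 325, 314 and 730.0 for VE-PTPiKO sham, and 352, 322 and 469 for VE-PTPiKO IR. VE-PTPiKO sham 1 and 2 lay near the IR level and VE-PTPiKO sham 3 near the Control sham level (interaction 1.31 ± 0.38, unadjusted p = 0.004). Nmrk1, a nicotinamide riboside kinase, stood at 554, 808 and 662 for Control sham, 1347, 927 and 764 for Control IR, 144, 152 and 494 for VE-PTPiKO sham, and 979, 927 and 1062 for VE-PTPiKO IR. The same 2 sham libraries were lowest (interaction 1.59 ± 0.52, unadjusted p = 0.0091). Ptgds, a prostaglandin D synthase, and Pik3c2g, a class II phosphoinositide 3-kinase, had interactions of 1.45 ± 0.48 and 1.58 ± 0.52. Both had estimated Control responses below 0 (-0.68 and -0.82) and VE-PTPiKO responses above 0 (0.77 and 0.76). None of these was called, with limma adjusted p of 0.271 and 0.209 in Control and 0.221 and 0.282 in VE-PTPiKO. For Pik3c2g, VE-PTPiKO IR 1 stood at 495, while VE-PTPiKO IR 2 and 3, at 177 and 197, lay within the VE-PTPiKO sham range of 100 to 205. Arhgap15, a Rac GTPase-activating protein, stood at 122, 115 and 114 for Control sham, 89.2, 85.8 and 73.2 for Control IR, 94.1, 93.6 and 91.6 for VE-PTPiKO sham, and 133, 127 and 93.2 for VE-PTPiKO IR. Its Control IR libraries were the lowest of all 12 (interaction 0.82 ± 0.25, unadjusted p = 0.006).

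Mfsd4b5, a member of a cluster of sugar transporter-like genes at chr10:39968153-39986646 (mm10), had the smallest unadjusted p of the interaction. It stood at 1730.2, 1537 and 109 for Control sham, 2058, 2094 and 1697 for Control IR, 1997, 1405 and 1751 for VE-PTPiKO sham, and 129.6, 125 and 96.5 for VE-PTPiKO IR. The libraries fell into 2 levels that do not follow the groups: 8 libraries lay between 1405 and 2094, and Control sham 3 and all 3 VE-PTPiKO IR libraries between 96.5 and 130. The change was 1.55 in Control and -3.86 in VE-PTPiKO, and the interaction was -5.41 ± 1.03 (interval -7.64 to -3.18, unadjusted p = 0.000156, limma adjusted p = 0.999). Without Control sham 3 it was -4.11 with an adjusted p of 1.71e-05, the 1 call made in any of the fits with a library left out. DESeq2 gave an adjusted p of 0.0907 with all 12 libraries. The gene has close relatives in the same cluster, and how shared reads were counted was not stated, so its level is uncertain.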

How the data were processed

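Whole-kidney RNA was sequenced in 12 libraries, 3 in each of 4 groups. Per the submitters' processing notes, the tools were DESeq2, FastQC, HTSeq and STAR, without versions, and the genome mm10. Whether the counting used strand is not given in the sources here. The authors deposited 1 table per genotype with normalized signal per library, which the values showed to be gene counts divided by a size factor set within each table. The deposited log2 fold changes, Wald score and deposited p-values and adjusted p-values of the authors are named per the file headers and were not used. Multiplied back, 100.0% of values came out as whole reads (tolerance 0.02), between 15427887 and 21296392 reads per library.

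The tables were joined by gene identifier (23286 genes, 182 identifiers listed more than once) and the reads of all 12 libraries rescaled by a median of ratios taken over 14828 genes. limma 3.58.1 (R 4.3.3) with a mean per group and a trend was fitted to log2(value + 1), keeping genes whose mean was at least 1. It was the main test because the deposited values are normalized. P-values are two-sided and adjusted by Benjamini-Hochberg over all genes tested, with 0.05 as the threshold. The test was run on simulated data whose genes varied independently, which those of these libraries do not, and the outcome is not reported here. Alternatives were TMM factors, the deposited scales, other filters and pseudocounts (0.5 and 5), edgeR 4.0.16, DESeq2 1.42.0, a weight per library, a replicate block and leaving out each library. Omitting the 3 libraries highest in Malat1 and using Malat1 as a covariate were added after seeing the data.

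Members and the 30 gene lists were chosen with earlier results of these data known. Of 506 list entries, 505 matched a gene and 497 were tested. The tested entries were 471 different genes, so some genes, such as Vcam1, Procr and F3, stand in more than 1 list. Deposited gene starts count from 0 and were raised by 1. Genes were named by rule: called genes, the 10 smallest unadjusted p in each direction at 5 CPM or more, up to 2 members per list, 7 genes of the pathway and of injury, and the 10 strongest injury responses. Sox9, Jun, Trib3, Ppp1r15a, Procr, F3, Bhlhe40, Egr1, Ccn1, Zfp36, Fos, Sele, Krt8, Adamts4, Ptgs2, Selp, Fga, Fgb and Fabp1 fall outside it and were chosen after their values were seen. Some genes that the rule names are not reported here. The libraries of each group differed from one another by more than sampling noise, in a comparison pooled over genes and not made gene by gene.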

Additional observations from a re-analysis of the deposited data

How the results depend on the processing

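Pooled over genes, the spread between the 3 libraries of a group exceeded sampling noise. At this spread a 2-fold difference of responses lay within the interval of most injury-responsive genes. The interaction had 0 calls in every setting run except without Control sham 3, which made 1 call (Mfsd4b5), so that the count ran from 0 to 1 when single libraries were left out. The unadjusted count ran from 271 to 1452 in those fits, and was 2828 with a weight per library and 1633 with Malat1 as a covariate; the cause was not tested. The average response had 2983 calls, 5218 with a weight per library, 5023 with Malat1 as a covariate, and 2132 to 4093 without single libraries. The signed median of injury-responsive genes was -0.086 with a weight per library, and -0.298 to -0.074 without single libraries. With a weight per library 42.3% of the falling genes lay above 0.

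A replicate block gave 0 interaction calls, 3056 average calls, a signed median of -0.238 and 453 genes at an unadjusted p under 0.05. Deviations from group means correlated between -0.25 and 0.30 in same-numbered libraries. Among libraries of other groups, 6 of 12 libraries correlated best with one of their own number. These values do not settle whether same-numbered libraries were paired, and the labels do not say that they were.

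Of 67 genes followed across the settings, 55 kept the sign of their interaction in each setting where they were tested and 12 did not. Many of these genes were named for a small unadjusted p or after their values were seen. Every setting used the same libraries or a part of them, so the count cannot show how signs would hold in other samples. Angpt1 turned to 0.015 with TMM factors, 0.196 with library weights, 0.136 without the 3 libraries highest in Malat1 and 0.023 with Malat1 as a covariate. Krt8 turned to 0.223 with library weights, 0.225 without the 3 libraries and 0.027 with the covariate. Selp turned to -0.44 with a pseudocount of 5, -0.563 with library weights and -0.121 without the 3 libraries. Without those 3 libraries Havcr1 was -0.021, Cd68 0.065 and Adamts4 -0.415. Of genes that kept their sign there, Angpt2 was -0.135, the interaction of Cdh5 was -0.506, the interaction of F3 was -0.376, and Ppp1r15a was at -0.281, Bhlhe40 -0.745, Clec4e -0.644 and Fgb -0.553. Without single libraries the estimate ran from -0.200 to 0.146 for Ptprb, -0.103 to 0.043 for Tie1, -0.126 to 0.104 for Angpt1, -0.186 to 0.444 for Cxcl1 and -0.511 to 0.341 for Krt20. It ran from -0.797 to 0.436 for Ccl2, -0.679 to 0.682 for Cyp27b1, -0.378 to 0.051 for Cd68, -0.170 to 0.167 for Krt8 and -0.447 to 0.716 for Selp. The causes of these sign changes were not tested.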

Other observations

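With all 12 libraries, genes of oxidative phosphorylation and of the cytosolic ribosome leaned the other way from the stress lists. Of 19 tested genes of oxidative phosphorylation 17 had an interaction above 0, with a median of 0.13, and 0 passed either the adjusted or the unadjusted threshold. When single libraries were left out that median ran from 0.01 (without VE-PTPiKO IR 1) to 0.36 (without VE-PTPiKO IR 3). The number above 0 was 10 without VE-PTPiKO IR 1 and 11 without VE-PTPiKO sham 2. Over all tested genes, 52.2% lay below 0 with all 12 libraries. Of 18 ribosomal protein genes 15 lay above 0, with a median of 0.18 that ran from 0.07 to 0.37. Median responses of these lists were small in both genotypes: -0.09 in Control and 0.06 in VE-PTPiKO for oxidative phosphorylation, and 0.05 and 0.24 for ribosomal proteins.

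Other lists had no member under an unadjusted p of 0.05. The median interaction was 0.06 over 16 genes of gluconeogenesis and glycolysis, -0.12 over 15 hypoxia response genes, -0.15 over 16 interferon-stimulated genes, 0.04 over 16 cell cycle genes, -0.07 over 14 fibroblast and mural genes and -0.41 over 12 lymphocyte genes. The sign of each of these medians except that of the lymphocyte genes changed when single libraries were left out. Lymphocyte markers summed to between 0.20 and 0.91 CPM per library, and 0 of the 12 lymphocyte genes had an interval inside a 2-fold difference. Their median ran from -0.69 (without VE-PTPiKO sham 2) to -0.09 (without VE-PTPiKO IR 3), with -0.67 without VE-PTPiKO IR 1, -0.66 without VE-PTPiKO sham 1, -0.27 without Control IR 3, -0.22 without VE-PTPiKO IR 2, -0.19 without Control IR 1 and -0.12 without VE-PTPiKO sham 3. Of 10 distal and connecting tubule genes 7 lay below 0 (median -0.22), with Trpv5 the 1 member under an unadjusted p of 0.05. That median was -0.06 without VE-PTPiKO IR 1, -0.12 without Control sham 3, -0.14 without VE-PTPiKO sham 3, -0.33 without Control sham 2 or VE-PTPiKO sham 1 and -0.34 without VE-PTPiKO IR 3.

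The 2-level pattern of Mfsd4b5 was looked for in other genes: a gap with the same 8 libraries on 1 side and the same 4 on the other, with every library of the high set at least 2-fold above every library of the low set. Of the tested genes that averaged 1 CPM or more, 1 showed it, Mfsd4b5 itself.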
